A study of Rattus norvegicus with 6 samples.

Results

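Immediate early genes are transcribed within minutes of a stimulus such as serum, growth factors, wounding or mechanical stress, without new protein synthesis. Serum response factor and its ERK-activated partners, and CREB, sit ready on their promoters. The FOS and JUN proteins they encode pair through leucine zippers to form the transcription factor AP-1, EGR1 and the Krüppel-like factors (KLFs) bind GC-rich DNA through zinc fingers, and all of them switch on later genes before their short-lived transcripts decay. In dermal fibroblasts this programme belongs to the response to wounding, and KLF4 is also known as a reprogramming factor and a regulator of growth arrest and of smooth muscle genes.

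The genes described here are 10 chosen by symbol, namely Fos, Fosb, Fosl1, Jun, Junb, Egr1, Ier2, Klf2, Klf4 and Klf6. All probes whose RefSeq accession maps to one of them were taken. Of the 10, 9 had a probe, 1 each, and all 9 were well above background (a flag the scanner software sets for each spot) on all 6 arrays and were tested among 18464 genes and transcripts. No probe was matched to Fosb, so it was not analysed here. The cells were rat dermal fibroblasts grown in medium with serum. In the knockdown group (n = 3) a lentivirus delivered an shRNA, a small hairpin RNA that silences its target, directed at lnc-URIDS, a long non-coding RNA. In the control group (n = 3) the cells received a control lentivirus. Infection (multiplicity of infection 10) and selection (puromycin at 2 µg/mL, 48 h) are thus common to both groups. Total RNA was hybridised to 1-colour Agilent arrays, 1 per sample. The labels give no time since the last change of serum or medium, which sets the state of these genes, and they do not state separate cultures for the replicates. The p-values therefore measure only the spread between these samples, and that spread may be technical.

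Each array had 68.8% to 74.1% of its 30367 probes well above background. The 75th percentile of the signal lay between 1493 and 1609 units. The arrays of controls 1 and 2 and of knockdown 2 and 3 share 1 slide, called slide 1, and control 3 and knockdown 1 share another, slide 2. No probe carried the name of lnc-URIDS, so the knockdown was not checked. Of 16 fibroblast markers 14 were well above background on all 6 arrays, among them Col1a1, Col3a1, Pdgfra and Thy1. Dcn and Lum, the proteoglycan genes decorin and lumican that dermal fibroblasts usually express, were well above background on none.

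Regulatory sites known in this class of genes can be read in the RefSeq promoter windows of the GRCr8 assembly (250 bases before to 50 after the annotated start). The table held windows for 7 of the 10 genes, not for Fos, Jun or Klf2. Both strands were searched for the CArG box bound by serum response factor, the cyclic AMP response element (CRE) TGACGTCA bound by CREB, and the AP-1 site TGACTCA. The 3 stretches shown are the ones that hold a match, with the matched bases in capitals. They run 5′ to 3′ on the gene's strand, at chr18:26736948-26737029 (plus strand) for Egr1, chr17:69458645-69458704 (minus strand) for Klf6 and chr19:40399282-40399339 (plus strand) for Ier2.
Egr1: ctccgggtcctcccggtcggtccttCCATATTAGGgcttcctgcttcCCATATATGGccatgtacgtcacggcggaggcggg
Klf6: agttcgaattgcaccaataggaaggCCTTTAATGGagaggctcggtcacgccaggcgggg
Ier2: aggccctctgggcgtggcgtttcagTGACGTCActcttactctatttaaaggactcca
Egr1 holds 2 CArG boxes, which begin 105 and 83 bases before the start, and Klf6 holds 1, which begins 201 bases before it. Ier2 holds a CRE that begins 66 bases before the start. A CArG box lies in 1.64% of all 33469 windows of that length, a CRE in 1.83% and an AP-1 site in 4.63%. No AP-1 site was found in the 7 windows, and none of the 3 motifs in those of Fosb, Fosl1, Junb and Klf4. The windows follow the annotated start, and for Fosb and Klf4 it was not tested whether the window covers the promoter or transcribed sequence after it. A match is a run of letters and not evidence of binding, and no match says only that these letters are not in the window.

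Klf4 was the only 1 of the 9 genes whose groups did not overlap, as was the case for 21.7% of all features in either direction. Its signal was higher on each knockdown array than on any control array, with a mean 1.41-fold that of controls. The other 8 genes overlapped between the groups, and none of the 9 passed the limma test over all genes (adjusted p under 0.05), as was true of 0% of all features tested. At an unadjusted limma p under 0.05, 1 of 9 was higher in knockdown (Klf4), against 5.91% of all features, and 0 of 9 were lower, against 8.25%. The groups did not overlap in 1 of 9 on the higher side, against 9.94% of all features, and in 0 of 9 on the lower side, against 11.8%. By the sign of the mean difference, 5 genes were higher and 4 lower, and 6 and 3 with arrays centred on their median or with a normexp background, a model that replaces the software's own subtraction. Their median log2 fold change (knockdown minus control) was 0.06 beside -0.01 over all features. In RNA from whole cultures, a change in the share of cells that express a gene and a change in the RNA per cell cannot be told apart.

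**Figure D1:**
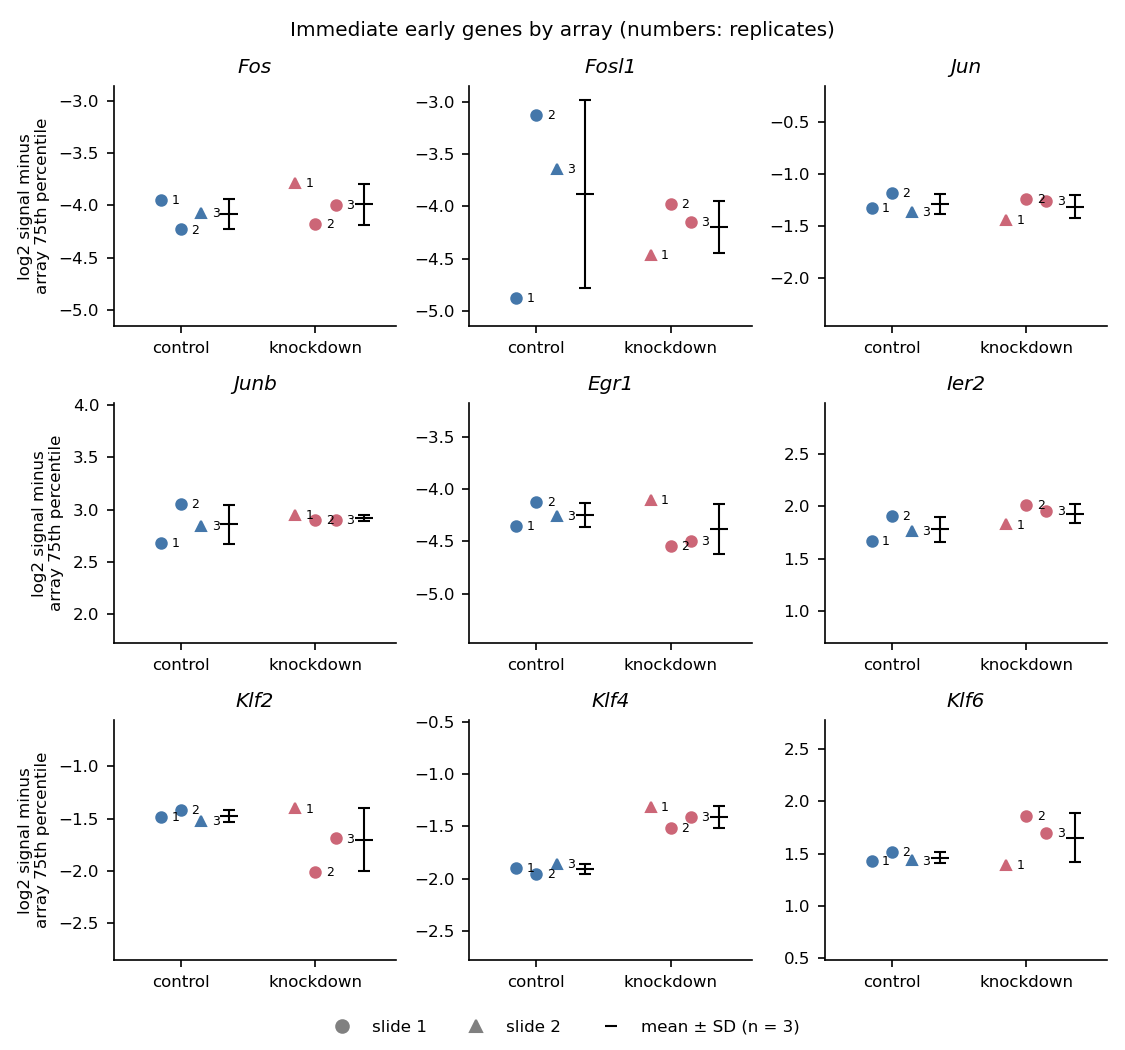
Log2 signal minus the array's 75th percentile for the 9 measured genes, 1 point per array with its replicate number, circles for slide 1 and triangles for slide 2, with the mean and SD of each group (n = 3); all panels span the same number of log2 units. The Klf4 points of knockdown (-1.52 to -1.31) lie above those of control (-1.95 to -1.86), while the points of the other genes overlap.

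Klf4 encodes a zinc finger factor that restrains proliferation in many cells. Its log2 signals relative to the 75th percentile were -1.90, -1.95 and -1.86 in controls 1, 2 and 3. In knockdown 1, 2 and 3 they were -1.31, -1.52 and -1.41. The lowest knockdown array thus lay above the highest control array, and the control arrays lay within 0.09 of each other. In units of processed signal, controls ran from 399.9 to 434 and knockdown arrays from 528 to 609. The raw spot was 17.3 to 20.5 times its local background in controls and 26.4 to 32.5 times in knockdown, so the difference does not lie at the floor of detection. The log2 fold change was 0.49 ± 0.07 (SE, n = 3 per group; limma adjusted p = 0.196), with a 95% confidence interval of 0.33 to 0.66. Klf4 ranked 24 of 18464 by p, and 3.11% of all features had a change at least as large in either direction. Within slide 1 the value was 0.46, and within slide 2, which has 1 array per group and so no test, it was 0.55. With slide as a block it stayed 0.49 (adjusted p = 0.223). Leaving out 1 array at a time gave 0.44 to 0.55. With array quality weights, which count arrays by how well they fit their group and favoured control 3 and knockdown 3, it was 0.46 and passed (adjusted p = 0.0467), and 739 features passed with it. Over all alternatives with a test the adjusted p ran from 0.0467 to 0.599.

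Klf2 and Klf6, the other Krüppel-like factors of the set, showed no such separation. Klf2, known for its part in quiescence of endothelium and lymphocytes, had log2 signals of -1.49, -1.42 and -1.52 in controls 1, 2 and 3. In knockdown they were -1.40, -2.01 and -1.69. Knockdown 2 and 3 lay below all controls and knockdown 1 above them. The log2 fold change was -0.23 ± 0.15 (SE, n = 3 per group; limma adjusted p = 0.583). Klf6, a widely expressed factor induced by wounding, had 1.43, 1.52 and 1.44 in controls, against 1.40, 1.86 and 1.70 in knockdown. Here knockdown 2 and 3 lay above all controls and knockdown 1 below them. Its log2 fold change was 0.19 ± 0.12 (limma adjusted p = 0.556). The difference of these genes had opposite signs on the slides. Within slide 1 the log2 fold changes were -0.40 for Klf2 and 0.30 for Klf6, and within slide 2, with 1 array per group, they were 0.12 and -0.04. The spread in knockdown exceeded that in control, with SDs of 0.30 against 0.05 for Klf2 and 0.24 against 0.05 for Klf6 (n = 3 each).

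The log2 ratio of 2 probes on the same array does not depend on the scaling between arrays. Its difference between groups is the log2 fold change of 1 gene minus that of the other. All 8 ratios of Klf4 to another gene of the set had a higher mean in knockdown, by 0.30 to 0.81, and in 6 of them the groups did not overlap. Since Klf4 itself separated the groups, these ratios restate that difference relative to each gene and are given without a test. All 8 share the Klf4 probe, so they are not separate results. The share of ratios without overlap over all features was not computed, and for single features it was 21.7%. The ratio to Klf2 was higher by 0.72, with group SDs of 0.10 in control and 0.20 in knockdown (n = 3 each) and a gap of 0.43 from the highest control to the lowest knockdown array. For Egr1 the difference was 0.63 with a gap of 0.34, and for Jun it was 0.52 with a gap of 0.22. For Junb it was 0.44 with a gap of 0.16, for Fos 0.40 with a gap of 0.20, and for Ier2 0.34 with a gap of 0.04. The ratios to Klf6 (0.30) and to Fosl1 (0.81, control SD 0.92) overlapped between the groups.

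**Figure D2:**
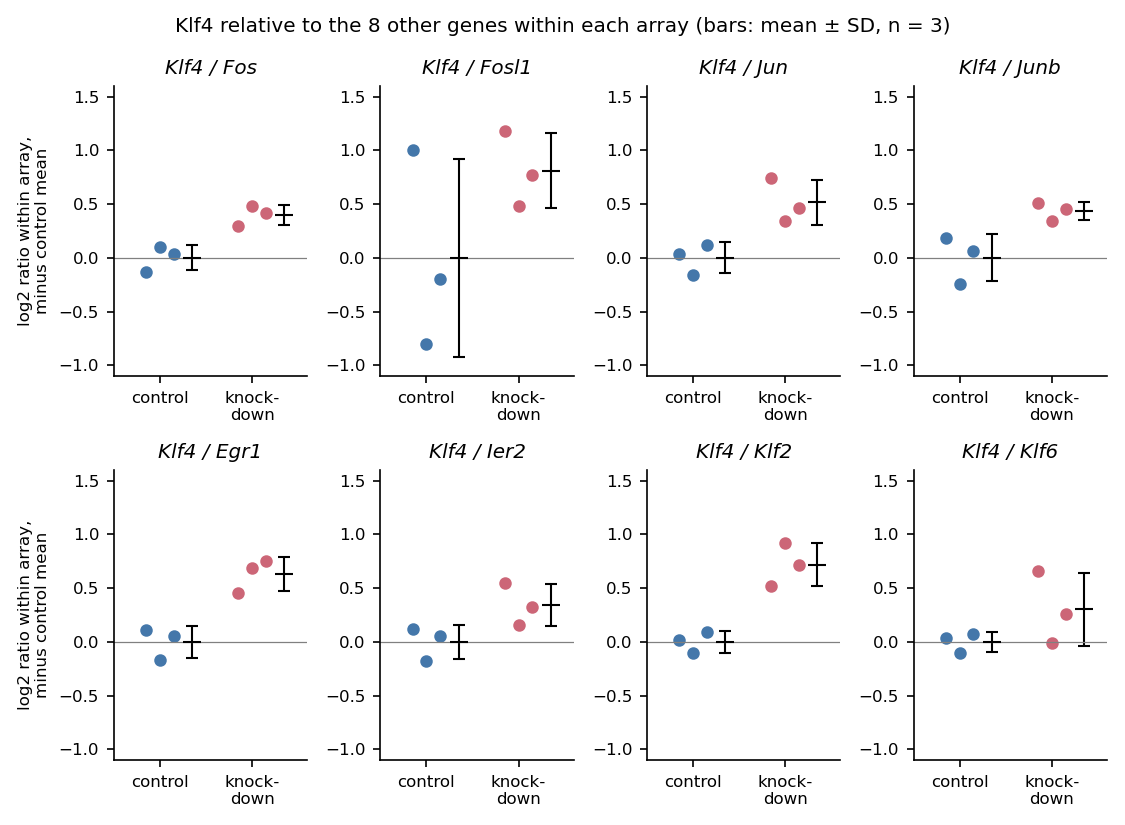
Log2 ratio of the Klf4 probe to that of each of the 8 other measured genes on each array, minus the mean of the control arrays, with the mean and SD of each group (n = 3). The 3 knockdown points lie above the 3 control points in 6 panels, and overlap with them for Fosl1 and Klf6.

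The JUN genes overlapped between the groups. Jun, the core AP-1 subunit that drives proliferation, had log2 signals of -1.32, -1.18 and -1.37 in controls 1, 2 and 3. In knockdown they were -1.44, -1.24 and -1.26, with knockdown 1 below all controls and the others among them. The difference of means was -0.02 ± 0.08 (log2, SE, n = 3 per group; limma adjusted p = 0.948), with a 95% confidence interval of -0.22 to 0.17. Its sign turned with centring on the median (0.0011). Junb, a JUN relative that often restrains proliferation, gave processed signals of 9592 to 13372 units. It had 2.68, 3.06 and 2.84 in controls, against 2.95, 2.90 and 2.90 in knockdown. All knockdown arrays fell between the lowest and the highest control. Its log2 fold change was 0.06 ± 0.10 (limma adjusted p = 0.874), with an interval of -0.18 to 0.30.

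The FOS genes gave signals close to the background. Fos, the classic serum-induced partner of Jun, had processed signals of 83.6 to 109 units over the 6 arrays, and its raw spot was 4.23 to 6.22 times the local background. Its log2 signals were -3.95, -4.23 and -4.07 in controls 1, 2 and 3, against -3.79, -4.18 and -4.00 in knockdown. The difference of means was 0.09 ± 0.12 (log2, SE, n = 3 per group; limma adjusted p = 0.818), and the groups overlapped. It was -0.00088 within slide 1 and, within slide 2, 0.29. Fosl1, which encodes FRA-1, a FOS relative linked to migration and invasion, varied most. It had -4.87, -3.12 and -3.64 in controls, against -4.47, -3.98 and -4.15 in knockdown. The control arrays spanned 1.75 on the log2 scale, from below to above every knockdown array. The spread within groups of Fosl1 (SD 0.66) lay at the 98.6th percentile of all features, whose median was 0.09. The log2 fold change of -0.32 ± 0.45 (limma adjusted p = 0.836) had an interval of -1.43 to 0.80, so a change of 2-fold downward is within it. Without control 1 the log2 fold change was -0.82, and without control 2 it was 0.06.

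Egr1, the zinc finger factor whose CArG boxes are shown above, gave 64.8 to 92.2 units of processed signal, and its raw spot was 4.83 to 5.79 times the local background. It had log2 signals of -4.35, -4.12 and -4.25 in controls 1, 2 and 3, against -4.11, -4.55 and -4.49 in knockdown. Knockdown 2 and 3 lay below all controls and knockdown 1 above them, the same placing of the knockdown arrays as for Klf2. Its log2 fold change was -0.14 ± 0.13 (SE, n = 3 per group; limma adjusted p = 0.731). It was -0.28 within slide 1 and, within slide 2, 0.15, and with a normexp background its sign turned (0.13).

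Ier2, a nuclear immediate early protein with the CRE shown above, was printed 10 times on each array, which shows the spread over spots. The SD over the spots of 1 array was 0.05 to 0.08 on the log2 scale. The same spot read highest on every array, so this spread is not random error alone. The SD over array means, each a mean of 10 spots and so an unlike measure, was 0.12 in control and 0.09 in knockdown (n = 3 each). The array means were 1.67, 1.91 and 1.77 in controls 1, 2 and 3, against 1.83, 2.01 and 1.96 in knockdown. Control 2 lay above knockdown 1, so the groups overlapped. The mean difference on the log2 scale was 0.15 ± 0.08 (SE, n = 3 per group; limma adjusted p = 0.482), with an interval of -0.05 to 0.35.

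**Figure D3:**
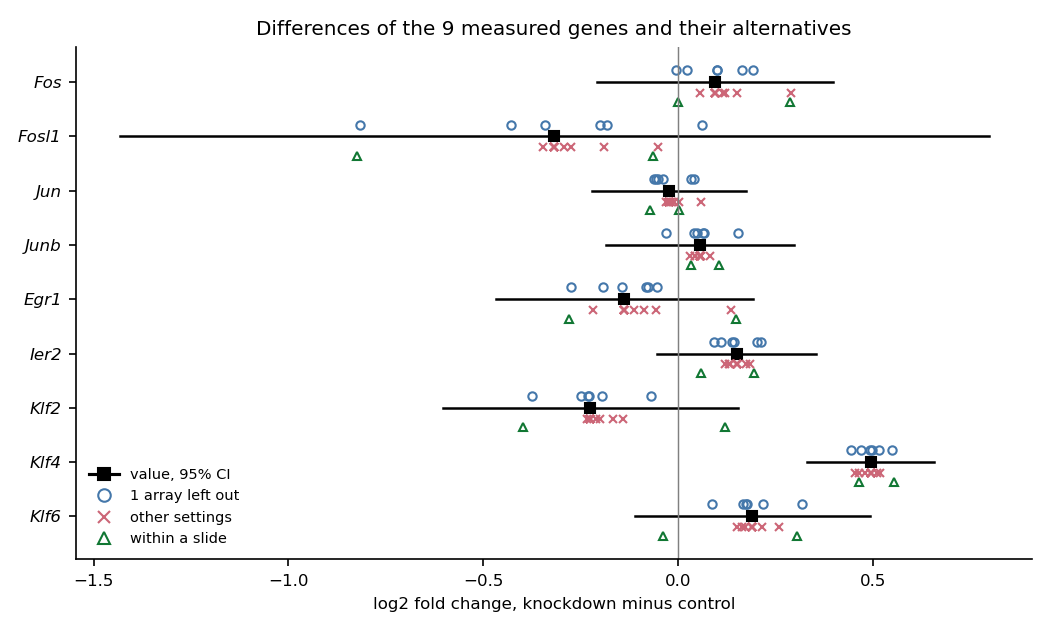
Log2 fold change (knockdown minus control) of the 9 measured genes with its 95% confidence interval (black), and its value with 1 array left out (circles), under other settings (crosses) and within each slide (triangles). Over these settings Klf4 lies between 0.44 and 0.55 and Ier2 between 0.06 and 0.21, and the 7 other genes each change sign in at least 1.

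The counts depend on single arrays, and so do those of all features. Without knockdown 1, 4 of the 9 genes had an unadjusted limma p under 0.05, beside 16.5% of all features in the same fit. They were Klf4, Klf6 (0.32), Klf2 (-0.37) and Egr1 (-0.28, log2 fold changes). In the same fit 5 genes did not overlap, beside 38.6% of all features, since fewer arrays separate more easily. Without control 1, 2 genes were under that threshold (Klf4 and Fosl1), beside 17.6% of all features, and 2 did not overlap, beside 38.2%. Without control 2, 2 genes were under it (Klf4 and Ier2), beside 11.1%, and 3 did not overlap, beside 30.2%. None of the 9 passed after adjustment in any of these fits. Of the 9 genes, 4 had their highest signal on knockdown 1, 3 on control 2 and 2 on knockdown 2.

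Other immediate early genes, a list of 36 that shares no gene with the set, went both ways. Of the 34 tested, the mean was higher in knockdown for 16 and lower for 18, and the median log2 fold change was -0.01, equal to that of all features to 2 decimals. The split turned to 18 higher and 16 lower with quantile scaling, 19 and 15 with median centring, and 22 and 12 with a normexp background. None passed after adjustment with arrays counted alike. At an unadjusted limma p under 0.05, 7 were higher (20.6%, against 5.91% of all features) and 2 lower (5.88%, against 8.25%). These counts use the brightest probe of each gene. With the mean of a gene's probes, 6 were higher and 4 lower (5.57% and 8.53% of all features). Second probes of Tsc22d1 (-0.27 ± 0.06) and Ier5 (-0.22 ± 0.08) were lower at that threshold. The second probe of Csrnp1, counted as higher, was not called (0.11 ± 0.07). The count of 7 moved with the arrays used, and so did the share of all features called higher. It was 2 without control 2 (3.91% of all features), 3 without control 3 (3.76%) and 4 without knockdown 1 (6.19%). Without knockdown 2 it was 2 (3.74%), and without knockdown 3 also 2 (3.34%). The genes with the smallest p were Gadd45b and Gadd45g, growth arrest and stress sensors, and the orphan nuclear receptor gene Nr4a2. Gadd45b had log2 signals of 2.34, 1.98 and 2.00 in controls 1, 2 and 3, against 2.41, 2.72 and 2.53 in knockdown. The groups did not overlap, though control 1 came close to knockdown 1. Its log2 fold change was 0.45 ± 0.13 (SE, n = 3 per group; limma adjusted p = 0.237). Gadd45g had 0.34 ± 0.11 (adjusted p = 0.272), with 0.43 within slide 1 and 0.14 within slide 2. With array quality weights Gadd45g passed (0.45, limma adjusted p = 0.0476). Nr4a2 had 0.17 ± 0.06 (adjusted p = 0.282), and 0.08 ± 0.05 on its second probe. The 2 lower genes, named after their values were seen, were the kinase gene Sgk1 (-0.38 ± 0.13) and Ier5l (-0.22 ± 0.09).

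**Figure D4:**
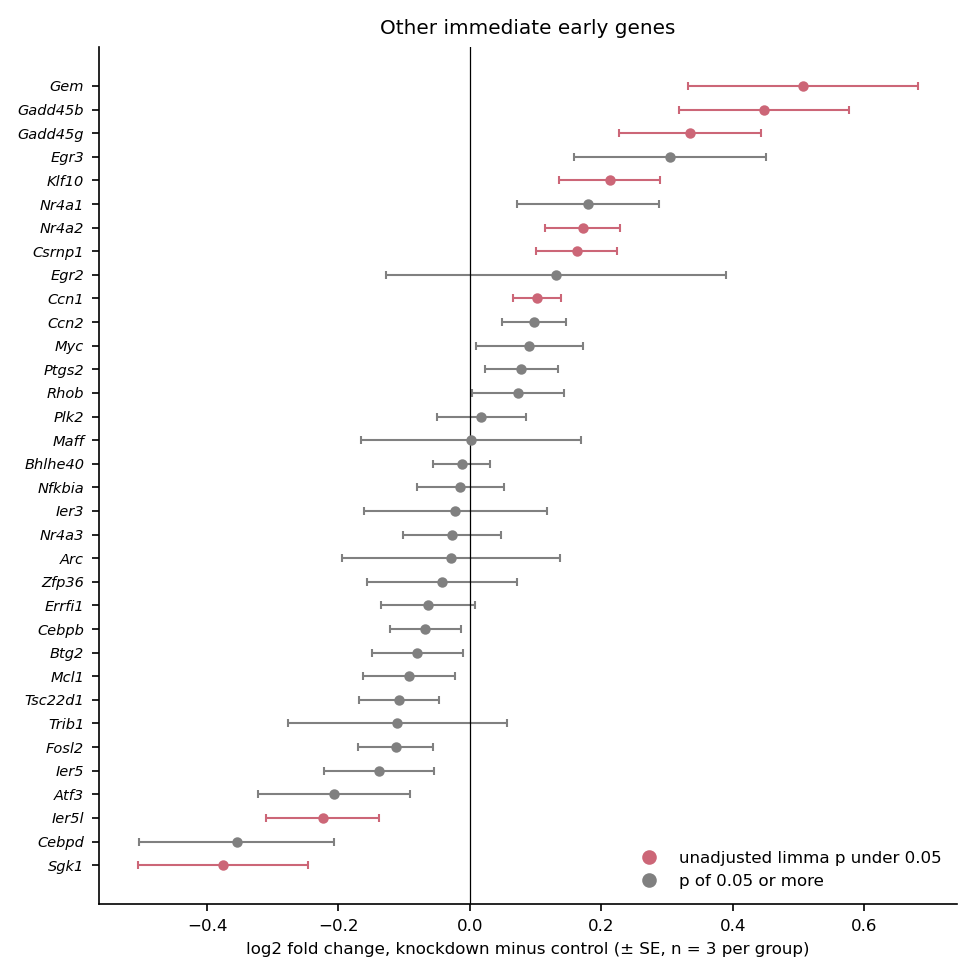
Log2 fold change (knockdown minus control) with its SE for the 34 tested immediate early genes outside the set, ordered by size, in red where the unadjusted limma p was under 0.05 (n = 3 per group). Each point is the brightest probe of its gene. The red points comprise 7 genes on the higher side and 2 on the lower, Sgk1 and Ier5l. None passed after adjustment over all features in the fit shown.

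Among the factors that drive immediate early transcription, Srf, which encodes serum response factor, had the smallest p. It had log2 signals of 2.31, 2.26 and 2.23 in controls 1, 2 and 3, against 2.43, 2.48 and 2.50 in knockdown. All knockdown arrays lay above all controls. The difference was 0.20 ± 0.05 on the log2 scale (SE, n = 3 per group; limma adjusted p = 0.196), with 0.20 within slide 1 and also 0.20 within slide 2. With array quality weights it passed (0.24, adjusted p = 0.0467). Of the 19 tested upstream genes, the mean was higher for 4 and lower for 15, and 7 and 12 with median centring or a normexp background. At an unadjusted limma p under 0.05, 1 was higher and 4 were lower (5.26% and 21.1%, against 5.91% and 8.25% of all features). The lower ones included Egfr, a growth factor receptor (-0.12 ± 0.04), and Elk3, a partner of serum response factor (-0.13 ± 0.04). The median was -0.05 beside -0.01 over all features. The count of 4 lower fell to 0 without control 2 (7.17% of all features lower) or knockdown 3 (4.70%). It fell to 1 without control 3 (5.09%) or knockdown 2 (5.34%). It was 1 with quantile scaling (7.30%), 2 with median centring (6.02%) and 0 with a normexp background (3.41%). The count rose to 5 with a normexp background and quantile scaling together (7.43%). It rose to 6 with a limma variance trend on intensity (8.54%) and to 6 with array quality weights (17.0%).

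The feedback inhibitors of MAP kinase signalling had 0 calls of 10 with all arrays. Of the 10 tested MAP kinase phosphatases and Sprouty proteins, the mean was higher for 4 and lower for 6, which turned to 6 and 4 with quantile scaling, median centring or a normexp background. None had an unadjusted limma p under 0.05, beside 5.91% higher and 8.25% lower of all features. With median centring 2 were higher at that threshold (8.05% of all features). With array quality weights 2 were higher and 2 lower (11.2% and 17% of all features). Without control 1 there were 2 higher and 4 lower (7.71% and 9.89% of all features). Spry2, an inhibitor of receptor kinase signalling, had the smallest p, with -0.36 ± 0.15 (SE, n = 3 per group; limma adjusted p = 0.358). Dusp8 had 0.26 ± 0.11 and Dusp14 -0.09 ± 0.04.

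Lists of factors related to the set also went both ways, and none of their genes passed in the fit with arrays counted alike. Of 10 other AP-1 family genes, the mean was higher for 4 and lower for 6, and 6 and 4 with a normexp background. In this list 1 of 10 was lower at an unadjusted limma p under 0.05, near the 8.25% of all features, and 0 were higher. Without knockdown 1 there were 3 lower (10.3% of all features), and without control 2 there were 2 (7.17%). Without control 1 there were 2 higher and 1 lower (7.71% and 9.89%), and with array quality weights 4 were lower (17.0%). The gene lower with all arrays was Maf, a large leucine zipper factor, with -0.68, -0.64 and -0.70 in controls 1, 2 and 3, against -1.01, -0.93 and -0.87 in knockdown. Its groups did not overlap, with a mean difference of -0.26 ± 0.05 (log2, SE, n = 3 per group; limma adjusted p = 0.196). Fosl2 had -0.11 ± 0.06, with 0.07 under a normexp background, and Jdp2 -0.10 ± 0.05. The list of KLF and EGR relatives had 15 tested genes, among them Nab1 and Nab2, which are not relatives in sequence. Of the 15, the mean was higher for 8 and lower for 7. The split was 10 and 5 with median centring or a normexp background, but 5 and 10 without knockdown 1. At that threshold 2 were higher and 1 lower (13.3% and 6.67%, against 5.91% and 8.25% of all features). These counts use the brightest probe of each gene. Second probes of Klf5 (-0.21 ± 0.05) and Sp1 (-0.13 ± 0.05) were lower at that threshold, and those of Klf3 and Klf12 were not called. With the mean of a gene's probes the counts stayed 2 and 1 (5.57% and 8.53% of all features). Within slide 1 there were 0 higher (3.56% of all features). Without control 2, control 3, knockdown 2 or knockdown 3 there was 1 higher (3.34% to 3.91%). Klf15, a factor of metabolism and of glucocorticoid responses, ran from -0.61 to -0.58 in controls and from -1.18 to -0.80 in knockdown. All knockdown arrays lay below all controls, and the log2 fold change was -0.40 ± 0.10 (limma adjusted p = 0.205), and -0.22 within slide 2. With array quality weights Klf15 passed (-0.44, limma adjusted p = 0.0473). Klf10, which responds to TGF-beta and, like Egr2 and Egr3, is also in the immediate early list, had 0.21 ± 0.08. Klf1, the erythroid factor, had 0.27 ± 0.07 on a dim probe, and 0.07 with a normexp background and quantile scaling.

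Genes that AP-1 is known to drive in fibroblasts had mostly lower means. Of the 14 tested, the mean was lower for 11 and higher for 3, and for 9 and 5 with a normexp background. The median log2 fold change was -0.20 beside -0.01 over all features, and -0.09 with a normexp background, -0.06 with probes well above background on all arrays alone and -0.04 with no filter. At an unadjusted limma p under 0.05, 1 was higher and 3 were lower (7.14% and 21.4%, against 5.91% and 8.25%), and none passed after adjustment. The matrix metalloproteinase genes Mmp9 and Mmp13 entered through their control level alone, being well above background on 2 and 1 of 3 knockdown arrays, so these counts and the median are no support for a direction. With the probes well above background on all arrays, 12 genes were left, with lower means for 9 and 2 lower calls. The cyclin D1 gene Ccnd1, which starts the cell cycle, had log2 signals of 1.14, 1.42 and 1.27 in controls 1, 2 and 3, against 0.87, 0.87 and 0.93 in knockdown. All knockdown arrays lay below all controls. Its log2 fold change was -0.39 ± 0.08 (SE, n = 3 per group; limma adjusted p = 0.196), and it passed with array quality weights (-0.36, adjusted p = 0.0467). The ligand gene Tgfb1 had -1.75, -1.64 and -1.82 in controls, against -2.05, -2.32 and -2.13 in knockdown, again without overlap, and a log2 fold change of -0.43 ± 0.09 (-0.23 within slide 2). Mmp9, a gelatinase gene, had -5.34, -4.68 and -4.95 in controls, against -6.02, -7.15 and -6.51 in knockdown. Its log2 fold change of -1.57 ± 0.32 (adjusted p = 0.196) was -0.17 with a normexp background. With array quality weights Mmp9 passed (-1.62, limma adjusted p = 0.0467). Without control 1 the lower calls numbered 6 (9.89% of all features), and the genes with lower means numbered 8 without control 2 or without knockdown 1.

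Markers of other cells in which these genes are abundant were read beside them. Of 10 endothelial markers with a probe, 3 were well above background on all 6 arrays (Cdh5, Kdr and Erg), and 4 on none (Pecam1, Tie1, Cldn5 and Sox17). Their summed signal, in multiples of the 75th percentile, was 1.17 to 1.69 in control and 1.38 to 1.52 in knockdown. Of 11 macrophage and leukocyte markers, 6 were well above background on all arrays and 3 on none (Ptprc, Itgam and Cd163), with sums of 0.963 to 1.13 in control and 0.947 to 1.02 in knockdown. The ranges of both lists overlapped between the groups. The macrophage and leukocyte sum came mostly from Cd14 (log2 signals of -0.93 to -0.58). Cd14 was lower in knockdown without overlap (-0.18 ± 0.08), as were 11.8% of all features. Aif1 had -0.03 ± 0.10, and 0.76 ± 0.30 on a second probe. The endothelial sum came mostly from 1 Erg probe (log2 signals of -0.05 to 0.52), with a log2 fold change of 0.03 ± 0.15, and -0.14 ± 0.23 on a second probe. For keratinocyte markers the sums were 2.49 to 2.71 and 2.68 to 2.80, and for melanocyte and Schwann cell markers 0.751 to 0.966 and 0.768 to 0.949. The keratinocyte sum came mostly from 1 Tp63 probe (log2 signals of 1.22 to 1.37), while Krt5, Krt14 and Krt15 lay at -5.76 to -3.36. That Tp63 probe had a log2 fold change of 0.05 ± 0.05, and a second Tp63 probe had -0.57 ± 0.06. The mural cell markers, with 7 of 8 well above background on all arrays, summed to 8.94 to 9.42 in control and 9.89 to 11.9 in knockdown, without overlap. This sum came mostly from Cspg4 (log2 signals of 2.74 to 3.06), whose groups overlapped (log2 fold change 0.15 ± 0.08). Mcam, the next brightest, had log2 signals of 0.44 to 0.81 in control and 1.13 to 1.62 in knockdown. Single markers went both ways. Of the 7 tested, the mean was higher for 3 and lower for 4 (5 and 2 with a normexp background), with a median log2 fold change of -0.08. At an unadjusted limma p under 0.05, Mcam (0.77 ± 0.15) and Myh11 (0.55 ± 0.15, and 0.18 ± 0.06 on a second probe) were higher. At the same threshold Abcc9 (-1.14 ± 0.10), Kcnj8 (-1.32 ± 0.33) and Des (-0.20 ± 0.08) were lower. Those are 28.6% and 42.9% of the list, against 5.91% and 8.25% of all features. Fibroblast markers summed to 538 to 578 in control and 549 to 558 in knockdown. Of the 14 tested, the mean was lower for 10 and higher for 4, with a median of -0.10. In this list 5 were lower and 1 higher at that threshold (35.7% and 7.14%, against 8.25% and 5.91%). The lower ones were Prrx1 (-0.70 ± 0.22), Pdgfra (-0.51 ± 0.13), Twist2 (-0.24 ± 0.06), Twist1 (-0.24 ± 0.04) and Vim (-0.11 ± 0.04), and the higher one was Fap (0.23 ± 0.08). Without control 3 or knockdown 2 there were 3 lower (5.09% and 5.34% of all features). None of the mural or fibroblast markers passed after adjustment. The part of these markers in the Klf4 value was not tested. The heat shock list, whose genes can rise with handling stress, had 12 genes, of which Hspa1a, Hspa1b and Dnajb1 had no probe. The 9 tested had a median log2 fold change of 0.04, with higher means for 7 and lower for 2. The split was 8 and 1 with median centring and 6 and 3 with a normexp background. Of the 9, Hsph1 had 0.13 ± 0.04 (limma adjusted p = 0.281), Hspe1 had 0.11 ± 0.05 (0.06 ± 0.05 on a second probe) and Hspa4 had 0.08 ± 0.07.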

How the data were processed

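The authors deposited 1 scanner file per array, in which each spot has a linear intensity, already background-subtracted and spatially detrended by Agilent Feature Extraction, whose version is 11.0.1.1 per the file headers and was given as 11.0.0.1 in the submitters' processing notes, raw median intensities of spot and background, and flags coded 0 or 1. Control spots and 386 to 513 outlier spots per array were left out. Processed signals were put on the log2 scale, reduced by the 75th percentile of their array and averaged over a probe's spots. Probes were named by RefSeq accession (18005 of 30367) with a GRCr8 table. Probes well above background on all 3 arrays of a group were tested (20776), with the brightest probe for each gene (18464 features), in limma 3.58.1 (R 4.3.3), with Benjamini-Hochberg adjustment at 0.05. The code was tested on simulated data. The members, lists and tests were chosen with earlier results of these data known. The named genes are every member and, per list, those past the threshold or else the 3 with the smallest p. Outside that rule, Sgk1, Ier5l, Mmp13, Tsc22d1, Ier5, Csrnp1, Klf3, Klf5, Klf12, Sp1 and the marker genes given with values were named after these were seen. Egr2, Egr3, Nab1 and Nab2 are named only for their place in a list, and Hspa1a, Hspa1b and Dnajb1 for having no probe. Slides come from the headers' scan identifiers. Same-numbered samples had deviations that correlated at 0.10, 0.26 and -0.29 over features, so the numbers were not taken as pairs. Any 2 arrays correlated at 0.993 to 0.997. The files hold no mean spot signal, so normexp (offset 50) used the median.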

Additional observations from a re-analysis of the deposited data

How the results depend on the processing

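With array quality weights 739 features and 1 of the 9 genes (Klf4) passed, and with median centring 1 feature passed. The other alternatives passed 0. Of the 9 genes, 1 had an unadjusted limma p under 0.05, and 3 with array weights (28.1% of all features), 3 within slide 1 (10.3%), 2 with the replicate block (12.3%) and 1 to 4 with an array left out (8.04% to 17.6%). Those without overlap numbered 5 within slide 1, beside 44.4% of all features, and 1 to 5 with an array left out, beside 25.6% to 38.6%. Of the other immediate early genes, 7 higher calls became 2 within slide 1 (3.56% of all features) and 2 to 7 with an array left out (3.34% to 7.71%). The 2 lower calls became 5 with array weights (17.0% of all features) and 4 with the mean of a gene's probes (8.53%). They became 1 with median centring, no filter, the replicate block or within slide 1 (4.93% to 7.76%). With an array left out they became 0 to 4 (4.70% to 10.3%). The replicate block changed no call after adjustment (Klf4 0.49, adjusted p = 0.370). The sign turned for Jun with median centring (0.0011), array weights (0.059) and within slide 1 (0.0018), for Egr1 with normexp (0.13) and within slide 2 (0.15), for Fos within slide 1 (-0.00088), for Klf2 and Klf6 within slide 2 (0.12 and -0.0396) and for Fosl2 with normexp (0.0652). With an array left out, Jun ran from -0.0617 to 0.0406, Junb from -0.0322 to 0.15, Fos from -0.0061 to 0.19 and Fosl1 from -0.82 to 0.0601. The causes were not tested. Fos, Fosl1 and Egr1 lay within 10 times the local background, which limits them.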
